A study of Homo sapiens with 2 samples.

Results

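Transcripts of 10 genes of extracellular proteolysis were examined in RKO, a human colon cancer cell line: the matrix metalloproteinases MMP1, MMP3, MMP7, MMP10, MMP14 and MMP15, the related protease ADAMTS6, and the inhibitors TIMP1, TIMP2 and TIMP3. They were taken by symbol, using every probe set for which the platform annotation gives one of these symbols and no other, which gave 21 probe sets of the 41097 with a single symbol, or 10 of 19775 genes. The genes were chosen by their differences on these same arrays, where MMP1 and ADAMTS6 were among the highest, so the values below describe the arrays and are not independent support for an effect. The first group, sh-BCLAF1-L, was cells infected with a retrovirus carrying a short hairpin RNA against BCLAF1-L, the longer product of BCLAF1, a gene for a nuclear protein. The other group, sh-Luci, carried a luciferase hairpin as control. Both had their medium changed 24 h after infection and were selected with puromycin at 2 µg/ml for 72 to 96 h, and the labels mention stable lines but no cloning. Each group had 1 array and a single hairpin, so no spread between cultures exists, no p-value is given, and an effect of lower BCLAF1 cannot be told apart from another effect of the hairpin or from a difference between the arrays.

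Matrix metalloproteinases are zinc-dependent endopeptidases that are made as inactive proenzymes and cut collagens, other matrix proteins and cell surface proteins. Some are secreted, some are anchored in the plasma membrane, and the TIMP proteins block them by binding the active site. MMP1, MMP3, MMP7 and MMP10 belong to a gene cluster on chromosome 11, and several promoters of this cluster are known to carry a site for AP-1, the FOS and JUN dimer, a short distance before the transcription start. In colon tumours these proteases are made by stromal cells as well as by cancer cells.

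The promoters of MMP10 and MMP7, which belong to this cluster, are shown with those of ADAMTS6 and the membrane protease MMP14, which lie elsewhere. These promoters were picked with the differences described below known, and a link between their letters and the differences was not tested. Each is the 250 bases before the RefSeq start on the gene's own strand in assembly GRCh38.p14, and capitals mark matches to the AP-1 letters TGANTCA, which read the same on both strands.
MMP10: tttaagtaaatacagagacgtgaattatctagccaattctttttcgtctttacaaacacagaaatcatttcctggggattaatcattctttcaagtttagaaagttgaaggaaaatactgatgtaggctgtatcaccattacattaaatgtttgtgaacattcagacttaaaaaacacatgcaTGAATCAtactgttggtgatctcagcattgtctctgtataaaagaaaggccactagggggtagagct
MMP7: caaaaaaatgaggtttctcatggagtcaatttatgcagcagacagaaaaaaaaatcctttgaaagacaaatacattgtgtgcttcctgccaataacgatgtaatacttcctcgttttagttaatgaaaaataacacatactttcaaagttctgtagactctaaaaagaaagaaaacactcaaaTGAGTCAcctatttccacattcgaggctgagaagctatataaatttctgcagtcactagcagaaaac
ADAMTS6: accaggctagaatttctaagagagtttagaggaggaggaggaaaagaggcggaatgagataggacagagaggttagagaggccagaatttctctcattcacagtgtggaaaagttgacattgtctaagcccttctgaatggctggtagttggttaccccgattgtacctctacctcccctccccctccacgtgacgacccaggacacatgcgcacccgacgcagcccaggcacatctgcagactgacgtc
MMP14: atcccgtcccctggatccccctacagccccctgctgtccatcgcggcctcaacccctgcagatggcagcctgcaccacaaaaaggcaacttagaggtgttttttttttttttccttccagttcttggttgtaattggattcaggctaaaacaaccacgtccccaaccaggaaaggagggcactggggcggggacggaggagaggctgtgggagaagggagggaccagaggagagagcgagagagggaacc
The windows are chr11:102780629-102780878 (minus strand), chr11:102530748-102530997 (minus strand), chr5:65481921-65482170 (minus strand) and chr14:22836335-22836584 (plus strand), in the order of the sequences. Of the 10 genes, 7 had an entry in the promoter table, and MMP1, MMP3 and TIMP2 did not. MMP10 held TGAATCA and MMP7 held TGAGTCA, and both matches began 67 bases and ended 61 bases before the start. No such letters were in the windows of the other 5 genes (MMP14, MMP15, ADAMTS6, TIMP1 and TIMP3). Among all 35116 promoters of this length, 6.57% held a match. The TATA letters TATAAA, searched on both strands, were also found in MMP10 and MMP7 and in none of the other 5, against 10.7% of all promoters. AGGAAG, the PEA3 element of ETS factors, was found on either strand in MMP7, which held 2 copies, and in TIMP1, against 28.7% of all promoters. These matches do not overlap each other and describe the letters in these windows only.

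The deposited probe set intensities ran from 1 to 16650 on the sh-BCLAF1-L array and from 1 to 17349 on the sh-Luci array, with medians of 84.5 and 82.7. Differences are sh-BCLAF1-L minus sh-Luci on the log2(value + 1) scale, and folds are 2 to that power. A probe set was called detected where its mean over both arrays was at or above the 40th percentile over the whole array, an intensity of 63.7. All 6 probe sets of the targeted gene BCLAF1 were lower on the sh-BCLAF1-L array, by 1.43-fold to 2.96-fold. Which BCLAF1 products each probe set reads is not stated in the annotation used, so BCLAF1-L was not measured apart from shorter products. The ratio of 3' to 5' signal was 3.81 on the sh-BCLAF1-L array and 3.41 on the sh-Luci array for ACTB, and 1.49 and 1.38 for GAPDH, and the 18 biotin spike-in probe sets were all higher on the sh-BCLAF1-L array (median difference 0.20). The part of these array differences in the results was not tested. Probe sets of the same gene differed among themselves with a pooled SD of 0.16 (log2) when detected and 0.30 when below detection, a spread that covers probe set error and not cultures. Of the 12 colon epithelial markers, 8 were detected, EPCAM and KRT18 among them, whereas CDH1, KRT19, KRT20 and CEACAM5 lay below detection on both arrays' mean.

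Across the 10 genes, the collagenase MMP1 was about 3-fold higher in sh-BCLAF1-L cells, its neighbour MMP10 was about 1.5-fold higher, and ADAMTS6 was higher on some of its probe sets. MMP14, MMP15 and the TIMPs differed by less than 1.5-fold on all of their 14 probe sets. Detection held for 14 of the 21 probe sets and 8 of the 10 genes, and MMP3 and MMP7 had no detected probe set. ADAMTS6 was detected through its value on the sh-BCLAF1-L array alone. At 1.5-fold, 3 of the 21 probe sets were higher (those of MMP1 and MMP10 and 1 of ADAMTS6) and 0 were lower. The same fold was reached upward by 0.465% and downward by 0.231% of all 26452 detected probe sets with a single symbol, and upward by 3.26% and downward by 1.86% of those below detection. Since the genes were chosen with these differences known, nothing is read from that contrast. The median difference of the 21 probe sets was 0.013, against 0.015 for all detected probe sets and 0.040 for those below detection.

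**Figure D1:**
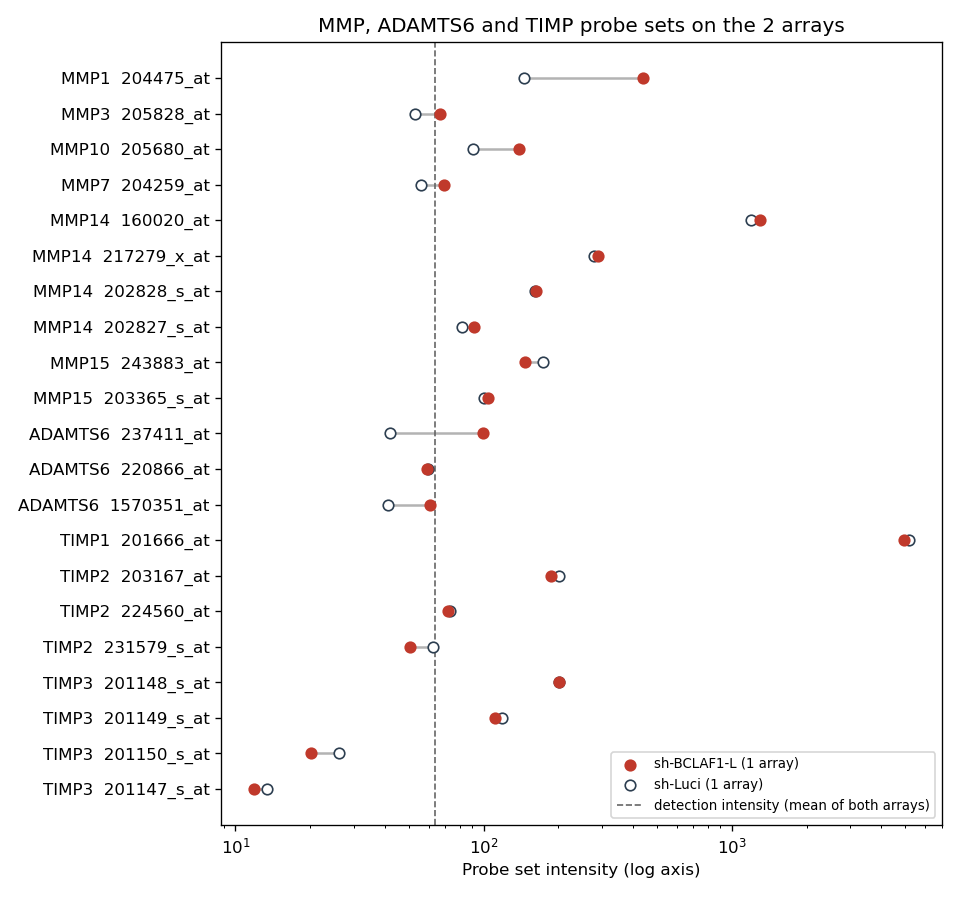
Intensity of the 21 probe sets (log axis) on the sh-BCLAF1-L array (filled) and the sh-Luci array (open), joined by a line, with the detection intensity dashed. The widest gaps are those of MMP1 and of ADAMTS6 237411_at, while the MMP14 pairs and the detected TIMP pairs nearly coincide.

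MMP1, the interstitial collagenase that cuts fibrillar collagen, was read by a single probe set, 204475_at, which gave 439.9 on the sh-BCLAF1-L array and 145 on the sh-Luci array. Both values lay above the detection intensity. The difference was 1.59 (3.01-fold), about 10.03 times the pooled within-gene SD of detected probe sets, a spread that does not cover cultures. Among all 41097 probe sets with a single symbol, those below detection included, the MMP1 probe set had rank 14. MMP1 ranked second of 14507 detected genes by its difference, with PIWIL4, an Argonaute family protein of the piRNA pathway, above it. PIWIL4 lay under the detection intensity on the sh-Luci array and counted as detected through the sh-BCLAF1-L array. With a pseudocount of 32, which damps the folds of dim probe sets, the MMP1 difference was 1.41 and it ranked in place 1.

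The stromelysins MMP3 and MMP10 cut proteoglycans, laminin and fibronectin and can activate other proenzymes, MMP1 included. MMP10 gave 139 on the sh-BCLAF1-L array and 91.0 on the sh-Luci array on its only probe set, both above the detection intensity. That was a difference of 0.61, or 1.53-fold, at rank 55 of the detected genes. The fold lay at the edge of the 1.5-fold limit and was under it with a pseudocount of 32 (0.48) and when all differences were centred on their median (0.58). MMP3 gave 66.5 on the sh-BCLAF1-L array and 53.1 on the sh-Luci array, so that the sh-BCLAF1-L value alone reached the detection intensity. Its difference of 0.32 (1.25-fold) was close to the spread of 0.30 among dim probe sets of the same gene.

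MMP7, or matrilysin, is a small secreted protease that lacks the hemopexin domain and is known as an epithelial product in colon tumours. Its probe set gave 69.35 on the sh-BCLAF1-L array and 55.85 on the sh-Luci array. The difference was 0.31 (1.24-fold), again about the size of the spread among dim probe sets. All 4 probe sets of MMP1, MMP3, MMP10 and MMP7 were thus higher on the sh-BCLAF1-L array, 2 of them detected. All 4 stayed so with the larger pseudocount and with the median or a loess curve subtracted. This could hardly come out otherwise, since a pseudocount cannot change a sign and the subtracted values were far smaller than these differences. The genes were also chosen with these differences known. Of probe sets in general, 53.9% of the detected and 56.4% of those below detection were above 0.

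On the log2 scale the MMP1 difference exceeded that of its detected neighbour MMP10 by 0.98, a ratio of folds of 1.97, and by 0.93 with a pseudocount of 32. MMP3 and MMP7 lay below detection, so no ratio of folds is given for them. The values compare single measurements and have no error from cultures.

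**Figure D2:**
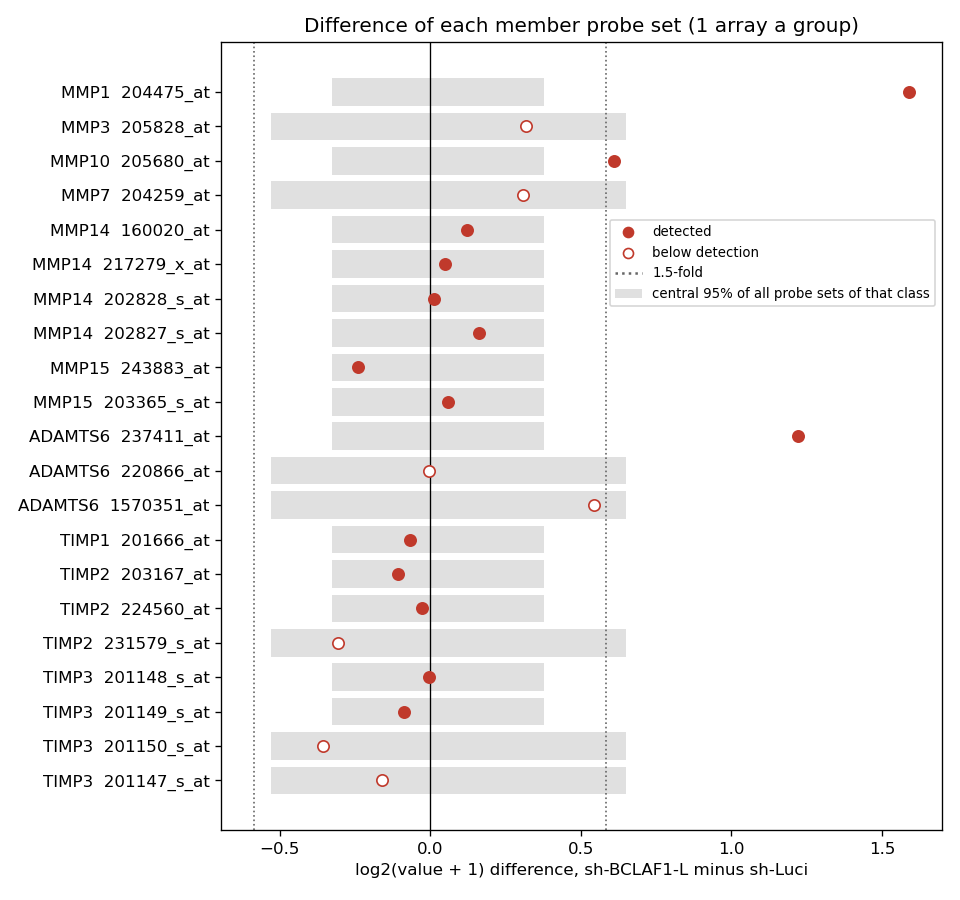
Difference of each probe set (log2, sh-BCLAF1-L minus sh-Luci), filled where detected and open where below detection, over grey bars that span the central 95% of all probe sets of that class. MMP1, MMP10 and ADAMTS6 237411_at lie to the right of their bars, and the other 18 probe sets lie within theirs.

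The order of genes in the RefSeq table places MMP7, MMP20, MMP27, MMP8, MMP10, MMP1, MMP3, MMP12 and MMP13 side by side on chromosome 11, between TMEM123 and DCUN1D5. MMP1 and MMP10 lie next to each other, and they were the only detected proteases of the cluster. The other 7 cluster genes lay below detection on the mean of both arrays, with MMP3 and MMP7 reaching the detection intensity on the sh-BCLAF1-L array. MMP12, the macrophage metalloelastase, gave 27.1 on the sh-BCLAF1-L array and 37.3 on the sh-Luci array (difference -0.45). MMP27 gave 40.8 on the sh-BCLAF1-L array and 50.65 on the sh-Luci array (-0.31). The collagenases MMP8 (-0.0040) and MMP13 (0.20) and the enamel protease MMP20 (0.24) showed small differences on their brightest probe set. The signs of the dim cluster genes thus varied.

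The detected flanking genes differed little. BIRC2, an inhibitor of apoptosis protein, gave 2223 on the sh-BCLAF1-L array and 2052 on the sh-Luci array (difference 0.12). YAP1, a transcriptional coactivator of the Hippo pathway, differed by -0.17, TMEM123 by 0.015, DCUN1D5 by 0.092 and the dynein motor gene DYNC2H1 by -0.17. None of these 5 reached 1.5-fold in either direction. BIRC3 was not analysed here.

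**Figure D3:**
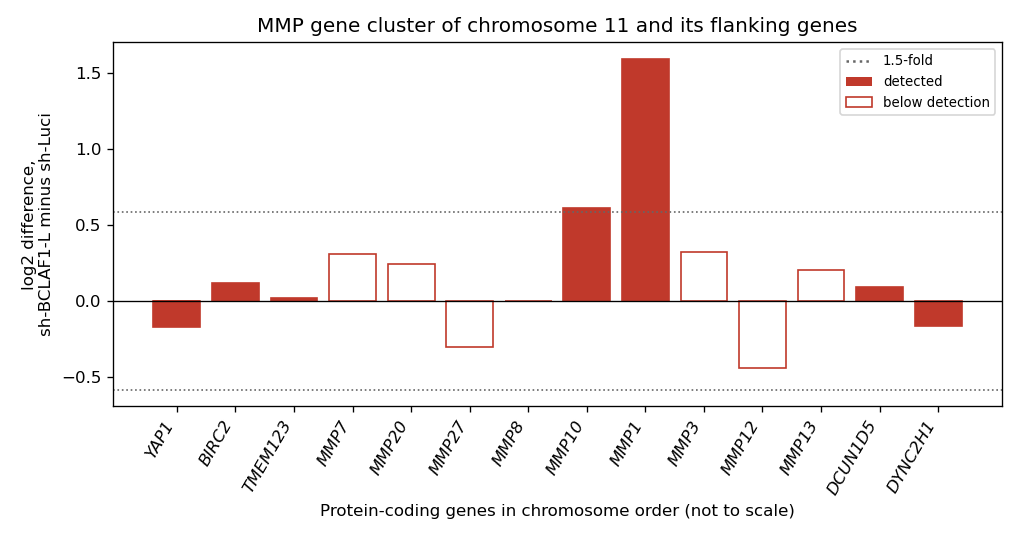
Difference of the brightest probe set (log2, sh-BCLAF1-L minus sh-Luci) for protein-coding genes in chromosome order from YAP1 to DYNC2H1, filled where detected and open where below detection. MMP10 at 0.61 and MMP1 at 1.59 stand beyond the dotted 1.5-fold lines, and the genes on either side do not.

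ADAMTS6 is a secreted protease with thrombospondin repeats, related to enzymes that cut proteoglycans and microfibril proteins. Its 3 probe sets did not give the same reading. Probe set 237411_at gave 99.2 on the sh-BCLAF1-L array and 42.0 on the sh-Luci array, a difference of 1.22 (2.33-fold). The sh-Luci value lay under the detection intensity, and the difference was 0.83 with a pseudocount of 32. Probe set 1570351_at gave 60.6 on the sh-BCLAF1-L array and 41.3 on the sh-Luci array, a difference of 0.54 with both values under the detection intensity. Probe set 220866_at gave 59.4 on the sh-BCLAF1-L array and 59.6 on the sh-Luci array, a difference of -0.0045. The range between the probe sets was therefore 1.23 on the log2 scale, and the median over them was 0.54 (1.46-fold), under the 1.5-fold limit. The ADAMTS6 transcripts that each probe set covers are not stated in the annotation used.

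The membrane-anchored MMP14, which cuts pericellular collagen and activates proMMP2, was detected on all 4 of its probe sets. The brightest, 160020_at, gave 1298 on the sh-BCLAF1-L array and 1191 on the sh-Luci array, a difference of 0.12. The other probe sets gave 289 and 279, 163 and 162, and 91.8 and 82.0 on the sh-BCLAF1-L and sh-Luci arrays. Their differences were between 0.013 and 0.16, so all 4 were marginally higher, by no more than about the within-gene spread. MMP15, another membrane-anchored protease, gave 147 on the sh-BCLAF1-L array and 174 on the sh-Luci array on 243883_at (difference -0.24). Its second probe set gave 104 on the sh-BCLAF1-L array and 100.02 on the sh-Luci array (0.058). Its probe sets thus pointed in opposite directions. Over both genes 5 of 6 probe sets were higher, and 4 of 6 after the median or a loess curve was subtracted, since MMP14 202828_s_at then lay below 0.

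The inhibitors were slightly lower or level on every probe set. TIMP1, a secreted inhibitor of most MMPs, gave 4949 on the sh-BCLAF1-L array and 5185 on the sh-Luci array, a difference of -0.067 (1.05-fold lower). TIMP2, which also takes part in activating proMMP2 at the cell surface, gave 187 on the sh-BCLAF1-L array and 201 on the sh-Luci array on its brightest probe set (-0.11). Its other probe sets gave 72.0 and 73.3, and 50.6 and 62.8, on the sh-BCLAF1-L and sh-Luci arrays (-0.026 and -0.31), the last pair below detection.

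TIMP3, which binds to the matrix and also inhibits ADAM and ADAMTS proteases, gave 200.7 on the sh-BCLAF1-L array and 201 on the sh-Luci array on 201148_s_at (-0.0034). A second detected probe set gave 112 on the sh-BCLAF1-L array and 119 on the sh-Luci array (-0.088). The remaining 2 lay far below detection, at 20.2 and 11.9 on the sh-BCLAF1-L array and 26.1 and 13.4 on the sh-Luci array (-0.36 and -0.16). All 8 TIMP probe sets were below 0, 5 of them detected. Of probe sets in general, 53.9% of the detected and 56.4% of those below detection were above 0. The larger pseudocount cannot change a sign, and subtracting the positive median lowers every difference, so neither could alter the count of 8. With a loess curve subtracted, all 8 were also below 0. The 5 detected TIMP probe sets differed by -0.11 to -0.0034, within the spread of 0.16 between probe sets of a gene. The MMP1 difference exceeded that of TIMP1 by 1.66, a ratio of folds of 3.16, and that of MMP14 160020_at by 1.47.

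**Figure D4:**
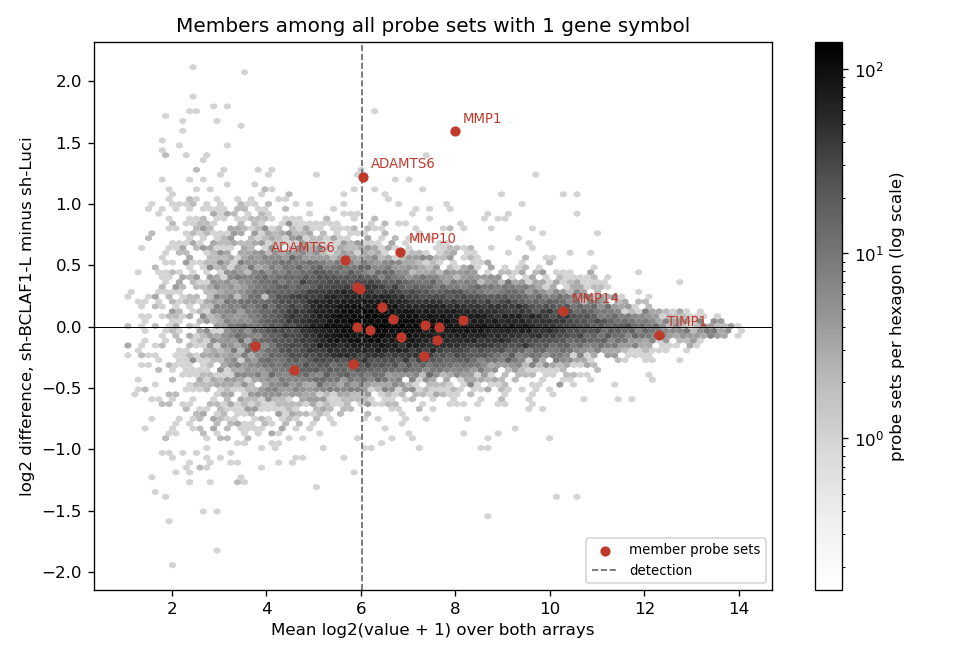
Difference (log2, sh-BCLAF1-L minus sh-Luci) against mean log2 intensity for all 41097 probe sets with a single symbol (grey, darker where denser), with the 21 probe sets in red and the detection limit dashed. MMP1 and ADAMTS6 237411_at stand above the grey cloud, MMP10 lies at its upper edge, and MMP14 and TIMP1 lie within it near 0.

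The other genes of the protease system were read from lists by the brightest probe set of each gene, and counts refer to detected genes. For comparison, 0.434% of the 14507 detected genes were at least 1.5-fold higher, 0.2% were at least 1.5-fold lower, 55% were above 0 and the median difference was 0.019. MMP1, MMP10 and ADAMTS6 were chosen with their differences known, so nothing is read from list counts that include them. Of the 10 secreted collagenases, gelatinases, stromelysins and matrilysins, 5 were detected, of which 4 were above 0 and 2, MMP1 and MMP10, passed 1.5-fold (median 0.28, and 0.034 over the list's 8 detected probe sets). The stromelysin-family protease MMP11 gave 272 on the sh-BCLAF1-L array and 224 on the sh-Luci array (0.28), though its other detected probe sets went as low as -0.073. The gelatinases MMP2 (-0.063) and MMP9 (0.016) were close to level.

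All 6 membrane-bound MMPs were detected, 3 of them above 0, and none reached 1.5-fold (median 0.052, range -0.24 to 0.16). Besides MMP14, the brightest was MMP24, at 188 on the sh-BCLAF1-L array and 174 on the sh-Luci array. Of 7 further MMPs 2 were detected, MMP28 (0.10) and MMP19 (0.0065). Among 6 inhibitors 5 were detected, 1 of them above 0 and 4 below (median -0.024). That one was RECK, a membrane-anchored inhibitor, which gave 786 on the sh-BCLAF1-L array and 759 on the sh-Luci array on its brightest probe set (0.050). Its second detected probe set gave 68.4 on the sh-BCLAF1-L array and 68.8 on the sh-Luci array (-0.0091). All of its probe sets below detection were lower as well, so the direction of RECK depended on the probe set.

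Of 19 ADAMTS proteases, 13 were detected, with 5 above 0 and 8 below and a median of -0.049, which was 0.019 over the 20 detected probe sets. Of the 13 detected genes, 2 were at least 1.5-fold higher. These were ADAMTS6, detected through the sh-BCLAF1-L array alone, and ADAMTS12, which cuts the cartilage protein COMP. ADAMTS12 gave 139.5 on the sh-BCLAF1-L array and 83.55 on the sh-Luci array on its brightest probe set (0.73, 1.66-fold), whereas its second detected probe set gave 74.2 and 65.7 (0.17). The brightest others, ADAMTS14 and ADAMTS13, differed by 0.0029 and -0.098. Of 9 ADAM sheddases, 7 were detected and none reached 1.5-fold (median -0.021, and 0.028 over 16 detected probe sets). ADAM10, which sheds Notch and other receptors, differed by 0.11 and ADAM9 by -0.021.

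Of 5 plasminogen activation genes with a probe set 4 were detected, 2 above 0 and 2 below, with none past 1.5-fold (median 0.015, which was -0.011 after centring on the median and -0.045 over 7 detected probe sets). PLAU, the urokinase that converts plasminogen to plasmin, gave 235 on the sh-BCLAF1-L array and 326 on the sh-Luci array (-0.47), and its second probe set differed by -0.14. Its receptor PLAUR gave 2528 on the sh-BCLAF1-L array and 2275 on the sh-Luci array (0.15), with -0.11 and 0.016 on the remaining detected probe sets. Both PLAU probe sets were thus lower, while those of PLAUR varied in sign.

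The list of AP-1 and ETS factors and RUNX2, which bind MMP promoters, had 13 of 13 genes detected, with 5 above 0 and 8 below. The median was -0.089, and -0.016 over the 30 detected probe sets of the list, with none past 1.5-fold. JUN gave 4602 on the sh-BCLAF1-L array and 4637 on the sh-Luci array (-0.011), and JUND differed by 0.080. FOSL1, an AP-1 subunit named here after its value was seen, gave 699 on the sh-BCLAF1-L array and 988 on the sh-Luci array (-0.50), the lowest difference of the list. ETV1, an ETS factor named in the same way, was at the other end with 211 on the sh-BCLAF1-L array and 158 on the sh-Luci array (0.41). Transcript levels of these factors do not measure their activity.

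Of 10 inducers, receptors and activators, 8 were detected, with 2 above 0 and 6 below (median -0.053). Over the 25 detected probe sets of the list the median was 0.081, so its sign turned with the choice of probe set. The hyaluronan receptor CD44, a docking site for MMP7 and MMP14, gave 2312 on the sh-BCLAF1-L array and 2097 on the sh-Luci array (0.14), and its 10 detected probe sets ran from -0.12 to 0.48. EGFR differed by -0.14 on its brightest probe set, and its 6 detected probe sets ran from -0.28 to 0.32. BSG, the MMP inducer also called EMMPRIN and named here after its value was seen, gave 266 on the sh-BCLAF1-L array and 340.4 on the sh-Luci array (-0.35).

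Substrates of collagenases and ADAMTS proteases had 7 of 10 genes detected, all 7 above 0 on their brightest probe set, with a median of 0.16 and none past 1.5-fold. COL1A1, a chain of the fibrillar collagen cut by MMP1, gave 397 on the sh-BCLAF1-L array and 355 on the sh-Luci array (0.16). Only 2 of its 5 probe sets were detected, and the dimmest gave 9.03 on the sh-BCLAF1-L array and 9.53 on the sh-Luci array. LTBP1, a microfibril protein that holds latent TGF-beta, gave 336 on the sh-BCLAF1-L array and 278 on the sh-Luci array (0.27). The second detected probe set differed by -0.052 for COL1A1 and by -0.28 for THBS1, whose brightest differed by 0.32, so the direction of these 2 genes depended on the probe set.

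**Figure D5:**
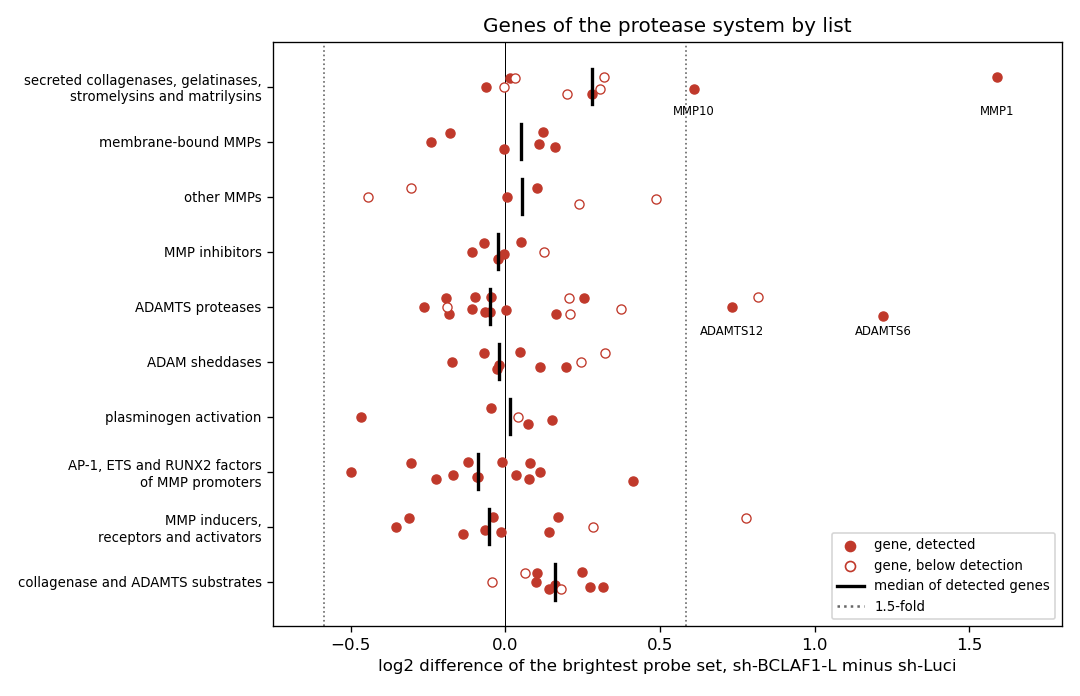
Difference of the brightest probe set (log2, sh-BCLAF1-L minus sh-Luci) of each gene in 10 lists of the protease system, filled where detected and open where below detection, with black bars at the medians of detected genes. MMP1, MMP10, ADAMTS6 and ADAMTS12 are the detected genes beyond the dotted 1.5-fold line, and the medians lie between -0.089 and 0.28.

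By difference alone, over these 2 arrays, the detected genes nearest to MMP1 were PIWIL4, ADAMTS6, SPRY2 and ITPRIPL1. PIWIL4 gave 147 on the sh-BCLAF1-L array and 42.5 on the sh-Luci array (1.77). SPRY2, a feedback inhibitor of growth factor receptor signalling, gave 1233 on the sh-BCLAF1-L array and 529 on the sh-Luci array (1.22). ITPRIPL1 differed by 1.19. Each rested on 1 detected probe set, PIWIL4 and ADAMTS6 counted as detected through the sh-BCLAF1-L array alone, and likeness over 2 arrays says only that the differences are of similar size.

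Some markers of other cell types that also make these proteases passed the detection limit. That limit is a percentile of the array and not a call of presence, so the counts and sums do not show such cells. CD3E, a blood cell marker, passed at 111 on the sh-BCLAF1-L array and 135 on the sh-Luci array. The epithelial markers CDH1 and KRT19 did not pass. Of 8 fibroblast markers 4 were detected, 3 of them above 0 (median 0.13). The summed intensity of the list was 857 on the sh-BCLAF1-L array and 787 on the sh-Luci array. COL1A1 was the brightest of these markers (397 and 355), though only 2 of its 5 probe sets were detected. Of 5 blood cell markers with a probe set 3 were detected (median 0.0032), with sums of 379 and 381 on the sh-BCLAF1-L and sh-Luci arrays. Of 5 endothelial markers 2 were detected, VWF and PECAM1 (median 0.062, and -0.0040 over 5 detected probe sets), with sums of 395 and 383. Of the 8 detected colon epithelial markers, 5 were above 0 and 3 below, with a median of 0.042. The lowest were KRT18, at 674 on the sh-BCLAF1-L array and 979 on the sh-Luci array (-0.54), and LGALS4 (-0.37). The highest were GPA33 (0.30) and CDX2 (0.20). No fibroblast, blood cell or endothelial marker was at the lowest deposited value of 1 on its brightest probe set, and PDGFRB, FAP, PTPRC, CDH5 and KDR were among those below detection. The part of these marker differences in the MMP1 difference was not tested, and more cells making a transcript and more RNA per cell cannot be told apart in RNA from a whole culture.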

How the data were processed

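Total RNA from 2 RKO cultures, 1 per hairpin, was extracted with Trizol, and 200 ng were labelled with an Affymetrix kit that primes at the 3' end, per the labels' protocols. The deposited intensity values are linear, 1 per probe set and array, and RMA is named in the submitters' processing notes. Program, version and final scaling are not stated in those sources. Precision is limited by the number of arrays.

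Of 54675 probe sets, 41097 had 1 symbol, 1801 several and 11777 none in the platform annotation. Symbols were updated by Entrez identifier (RefSeq table, GRCh38.p14), which matched 41043. Values were taken as log2(value + 1) in Python 3.11.15 with pandas 2.3.3 and statsmodels 0.14.6. A gene took its brightest probe set. The genes, lists and limits were chosen with earlier results of these data known. Genes named were all probe sets of the 10 genes, list members past 1.5-fold, the brightest 2 of each list, the 4 genes nearest MMP1, the cluster neighbours, BCLAF1, and others named as examples after their values were seen. Procedures were tested on simulated data. Alternatives were a pseudocount of 32, median or loess (span 0.3) subtraction, the median over probe sets, no _s_at or _x_at probe sets, other filters and other folds.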

Additional observations from a re-analysis of the deposited data

How the results depend on the processing

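No paired analysis was possible because only 1 array stood for each hairpin, and for the same reason no replicate could be left out. Of 194 alternative values for 57 results, 154 stayed within the pooled within-gene SD (for counts, within 1.5 times), 40 moved further, and no value past 1.5-fold changed sign. Some of the 154 could hardly move, so this count does not measure robustness. Subtracting the median shifts every difference by 0.026, and a gene with 1 probe set has no other to choose. Of the smaller differences, MMP14 202828_s_at (0.013) was -0.012 after median subtraction and -0.0019 after loess. With a pseudocount of 32 the MMP1 difference was 1.41. The count of the 10 genes' probe sets past the limit upward, 3 at 1.5-fold, was 1 at 3-fold (MMP1) and 1 when detection was set at the 60th percentile. For the protease lists together that count, 4, was 2 at 2-fold, 1 at 3-fold, 8 without a filter, 1 for detection at the 60th percentile and 2 with the larger pseudocount, and the count downward, 0, was 2 without a filter. Among all probe sets with a single symbol, 123 were higher and 61 lower, against 104 and 81 after median subtraction. They were 15 and 4 at 2-fold, 2 and 0 at 3-fold, 600 and 334 without a filter, 69 and 38 for detection at the 60th percentile, and 56 and 28 with the larger pseudocount. TIMP3 gave no value without _s_at and _x_at probe sets. Signal near background limits MMP3, MMP7 and ADAMTS6. MMP10 lay at percentile 59.5 of the array, so it was not detected with the limit at the 60th percentile.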
